A study of Drosophila melanogaster with 6 samples.

Results

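The genes described here encode subunits of Mediator, of the general transcription factor TFIID and of RNA polymerase II. They were chosen by name: every gene whose current symbol starts with MED or Taf and a digit, or with Polr2, and Tbp. The RefSeq gene table held 54 such genes, 25 of Mediator, 16 of TBP and the TAFs and 13 of the polymerase. Of these, 43 were measured by a probe set naming that gene alone, among 11982 genes measured in all. They were 22 Mediator genes, 14 TBP and TAF genes and 7 polymerase genes. The rule uses names and no measured value, although the set was proposed with earlier results of these data known. The TAF1B and TAF1C-like genes, which carry capital TAF symbols and belong to RNA polymerase I, were not included.

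RNA polymerase II transcribes protein-coding genes and cannot find a promoter without general factors. TFIID, made of the TATA-binding protein TBP and TBP-associated factors (TAFs), recognises the core promoter, and Mediator carries signals from activators to the polymerase. Mediator is built from a head, a middle and a tail, joined by the backbone subunit MED14, with a detachable kinase module. Many TAFs hold a histone fold and assemble in pairs, and some of them are also subunits of the acetyltransferase complex SAGA.

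The samples were Drosophila S2 cells, a line from late embryos that resembles blood cells. The series concerns dBigH1, an embryonic linker histone, and its effect on active chromatin. One group of 3 arrays came from wild type S2 cells, called S2 control here, and the other group of 3 from S2 cells induced to make dBigH1. Per the labels' protocols, all cells were given 1 mM copper sulphate for 24 h. The dBigH1::FLAG cells were kept under hygromycin B before the experiment and in the medium of the S2 cells during it. The sources used here name neither the promoter behind the transgene nor the number of clones. Other differences between the lines and dBigH1 itself cannot be told apart. Total RNA, 25 ng per sample, was hybridised to Affymetrix Drosophila arrays, and the values are log2 signals made by the authors with RMA. The labels number the replicates without saying whether each was a culture of its own. The p-values therefore refer to the spread among these arrays alone, and part of that spread may be technical.

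Across the whole table the arrays of a group were alike (Pearson's r of at least 0.998 over probe sets, whose values do not count as independent), and between groups r was 0.993. BigH1 read 4.86, 5.42 and 5.30 in S2 control and 13.47, 13.47 and 13.43 in induced cells on the log2 scale. It rose by 8.27 (SE 0.12, adjusted p = 7.338e-10). Of 15 S2 and blood cell markers, 14 lay above the median signal of all probe sets, the exception being lz. Of 5 measured fat body markers, 0 did. Other lists were not silent: 4 of 4 neuronal, 3 of 4 germline, 1 of 3 muscle and 1 of 4 gut markers lay above it. Of the 15 S2 markers, 6 rose and 4 fell, against 14.5% and 16.0% of all genes, while their mean log2 signal was 9.66 to 9.73 in S2 control and 9.70 to 9.75 in induced cells. In the other lists the germline genes bam and aub changed by 0.62 and -0.62, the neuronal gene Snap25 by 0.38 and the gut gene GATAe by -0.46, all passing, and 0 fat body or muscle markers passed in limma, with Yp1 and up at an unadjusted p under 0.05. The 5′ minus 3′ signal of control probe sets, a sign of RNA quality, did not move one way over 6 pairs. For the Act5C pair it was -1.26 ± 0.0869 (SD, n = 3) in S2 control and -1.79 ± 0.0778 (n = 3) in induced cells. For a pair of the GAPDH gene it moved the other way, from -1.92 ± 0.0443 (n = 3) to -1.73 ± 0.0487 (n = 3). The other 4 pairs, a second actin and a second GAPDH pair among them, differed by -0.08 to 0.03. The part of either in the results below was not tested. In bulk RNA, fewer cells of a type and less RNA per cell cannot be told apart.

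The comparison asked which subunits of this machinery differed between induced and S2 control cells. A gene "rose" or "fell" where its adjusted p in a limma fit over all probe sets was under 0.05. Of the 43 measured genes, 7 rose, 2 fell and 34 did not pass. The genes that rose were the Mediator genes MED18, MED1, MED10 and MED25, the TAF genes Taf9 and Taf10, and Tbp. MED14 and the TAF paralogue Taf12L fell. Each change was small: the largest was 1.41-fold and none reached 2-fold.

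Read against all genes, the count was not high. Of all 18769 probe sets 27.3% passed. Of all 11982 genes 30.5% passed, 14.5% rising and 16.0% falling, against 20.9% of the 43 genes, with 16.3% rising and 4.65% falling. Brighter genes passed more often. Of the 6984 genes at or above the median signal of all probe sets 42.3% passed, 21.1% rising and 21.3% falling, and 42 of the 43 genes lay in that range, the exception being Taf7. For 20 of the 43 genes (46.5%) every array of one group lay above every array of the other, against 45.4% of all genes. Of the 43 genes, 16 were higher on all induced arrays and 4 lower, against 2610 (21.8%) and 2827 (23.6%) of all 11982 genes. The median log2 change was 0.05, against -0.01 for all genes and 0.01 for the brighter ones. The median size of change was 0.112 on the log2 scale, against 0.108 for all genes and 0.148 for the brighter ones. Other settings moved the count. Trended robust moderation gave 11 rising genes, adding Taf4, Taf6, Taf10b and Polr2E. Leaving out dim probe sets gave 10 rising genes, adding Taf6, Taf10b and Polr2E, and 4 falling, adding MED6 and Polr2M (71.4% of calls higher, against 77.8% as reported). Centring arrays on ribosomal protein genes gave 7 rising and the same 4 falling genes (63.6%). Without S2 control replicate 2 the count was again 7 and 4, but MED24 and Polr2M were then the added lower genes, MED21 and Taf8 passed as higher, and MED25 and Tbp did not pass.

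**Figure D1:**
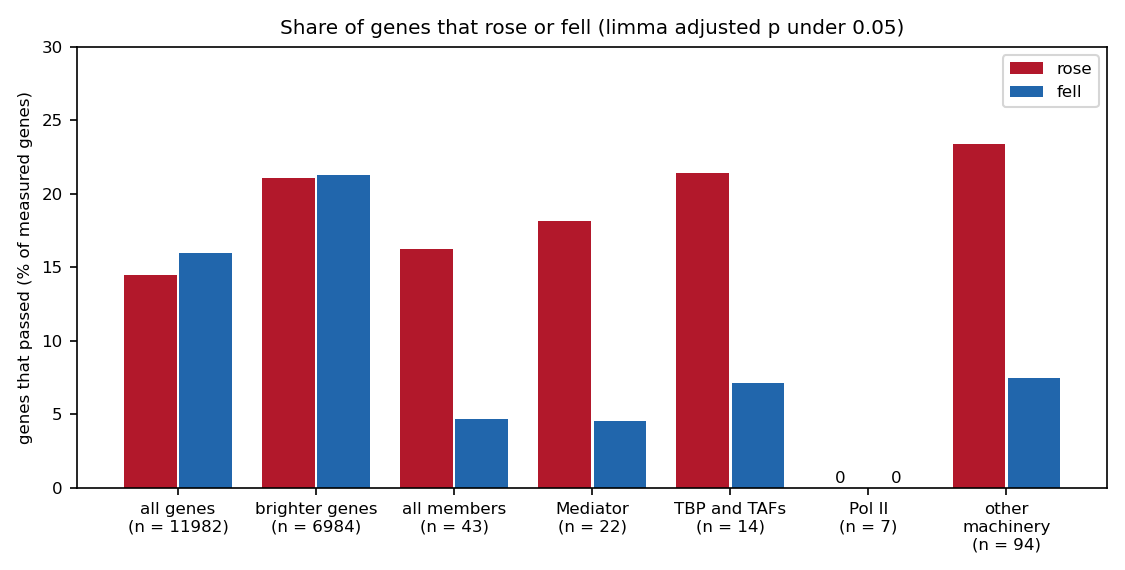
Share of measured genes that rose (red) or fell (blue) in induced cells, in percent, for all 11982 genes, the 6984 brighter genes, the 43 chosen genes, their 3 complexes and 94 other genes of the transcription machinery. In the polymerase group 0 of 7 passed, and in the Mediator, TBP and TAF groups the bars for falling genes are lower than for all genes.

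The head module of Mediator, which contacts the polymerase, had 9 measured genes, of which 1 rose and 8 did not pass. Its 11.1% of rising genes compares with 14.5% of all genes and 21.1% of the brighter ones. MED18, a head subunit that pairs with MED20, read 9.38, 9.31 and 9.48 in S2 control and 9.77, 9.89 and 9.94 in induced cells. All induced arrays lay above all control arrays, by more than the spread within either group. The log2 change was 0.48 (SE 0.07, adjusted p = 0.000519), 1.39-fold, the largest rise among the 43 genes. Its partner MED20 read 8.91, 8.97 and 9.05 in S2 control and 8.93, 9.03 and 8.96 in induced cells. Those arrays overlapped, with a log2 change of 0.00 (95% interval -0.13 to 0.13, adjusted p = 0.985). MED6, a conserved head subunit, read 8.86, 8.91 and 8.94 against 8.81, 8.77 and 8.69, lower on every induced array. Its log2 change of -0.15 (SE 0.05, adjusted p = 0.0783) did not pass. It passed where dim probe sets were left out (adjusted p = 0.0325). The head genes MED8, MED11, MED17, MED19, MED28 and MED30 had overlapping groups and log2 changes from -0.08 to 0.06.

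The middle module had 7 measured genes, of which 2 rose (28.6%, against 14.5% of all genes and 21.1% of the brighter ones) and 5 did not pass. MED1, known in mammals as the subunit bound by nuclear receptors, read 8.65, 8.59 and 8.77 in S2 control and 8.93, 9.00 and 9.05 in induced cells. The groups did not overlap, and the log2 change was 0.32 (SE 0.06, adjusted p = 0.00380). MED10, a conserved middle subunit, read 10.36, 10.50 and 10.45 against 10.63, 10.73 and 10.68. Its induced arrays were again all higher (log2 change 0.24, SE 0.06, adjusted p = 0.00994). MED21 and MED31 were also higher on every induced array, but their log2 changes of 0.15 (adjusted p = 0.106) and 0.13 (adjusted p = 0.119) did not pass. MED26, known in human cells to recruit elongation factors, had the widest control spread of the middle module. Its arrays read 8.71, 8.61 and 8.31 in S2 control and 8.45, 8.32 and 8.39 in induced cells, which overlapped. The log2 change was -0.16 (95% interval -0.37 to 0.05, adjusted p = 0.273), and without S2 control replicate 3 it was -0.28 and passed (adjusted p = 0.0162). MED4 and MED7 stood at 0.04 and 0.05 and did not pass.

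The tail and its link to the core had 6 measured genes, of which 1 rose, 1 fell and 4 did not pass. That is 16.7% each way, against 14.5% of all genes rising and 16.0% falling. Of the brighter genes, a range that held all 6, 21.1% rose and 21.3% fell. MED14, the backbone that joins the modules, read 9.41, 9.56 and 9.32 in S2 control and 9.15, 9.14 and 9.12 in induced cells. The groups did not overlap, and the induced arrays varied less than the controls. MED14 fell, with a log2 change of -0.29 (SE 0.06, adjusted p = 0.00764). MED25, known in human cells as a target of activators, read 9.39, 9.32 and 9.55 against 9.63, 9.70 and 9.60. The highest control array lay just below the lowest induced array, and the log2 change was 0.22 (SE 0.07, adjusted p = 0.0341). That call passed in 1 of the 6 fits that left out an array (adjusted p 0.00956 to 0.119). MED24 stood at -0.14 (adjusted p = 0.150), and passed without S2 control replicate 2 (-0.21, adjusted p = 0.0296). MED15, MED16 and MED27 had overlapping groups and log2 changes of 0.03, 0.07 and 0.01. MED16 had the widest spread of the 43 genes (SD 0.212 in S2 control), so its 95% interval reached from -0.15 to 0.28.

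**Figure D2:**
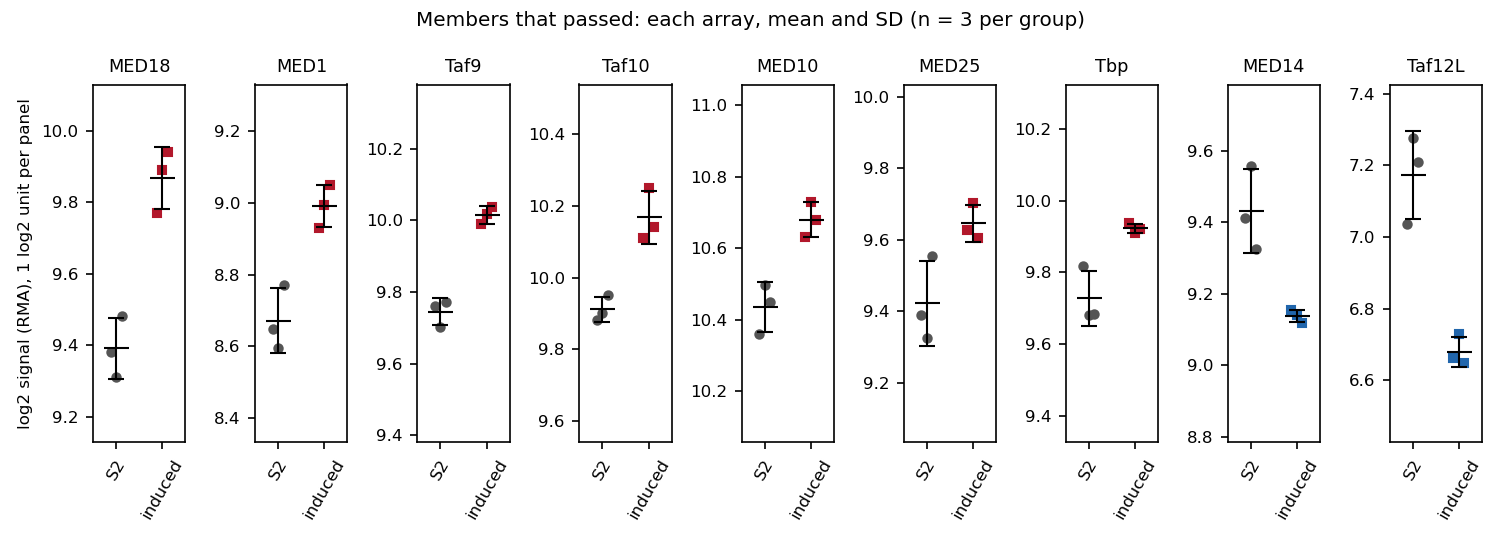
Log2 signal of each array for the 9 genes that passed, with S2 control as grey circles and induced cells as red (rose) or blue (fell) squares. The bars give the mean and SD of 3 arrays, and each panel spans 1 log2 unit. The groups do not overlap in any of the 9 panels, and the closest approach is in MED25.

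TBP, the subunit of TFIID that binds the TATA box, rose slightly. Its gene Tbp read 9.82, 9.68 and 9.68 in S2 control and 9.94, 9.91 and 9.92 in induced cells, a log2 change of 0.20 (SE 0.06, adjusted p = 0.0259). The induced arrays lay within a narrow range (SD 0.0133), above all controls. The call was near the threshold: it passed in 1 of the 6 fits with an array left out (adjusted p 0.0133 to 0.0827).

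Of the 9 measured histone-fold TAF genes, 2 rose and 7 did not pass. The arrays of 6 did not overlap, all 6 with higher induced arrays, and the median log2 change was 0.17. Of all genes, 14.5% rose, 45.4% did not overlap and 21.8% were higher on all induced arrays. Of the brighter genes 21.1% rose, and all 9 histone-fold TAF genes were that bright. Taf3, whose arrays overlapped, was placed in the histone-fold group after its values were seen. Taf9 read 9.76, 9.70 and 9.77 in S2 control and 9.99, 10.02 and 10.04 in induced cells (log2 change 0.27, SE 0.05, adjusted p = 0.00296). Its known partner in TFIID, Taf6, read 9.74, 9.82 and 9.84 against 9.93, 10.06 and 9.92. Both genes of the pair were higher on every induced array, but the 0.17 of Taf6 (SE 0.06, adjusted p = 0.0545) did not pass. It passed in 3 other settings, at an adjusted p = 0.0212 with trended robust moderation.

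TAF10 is present in Drosophila as paralogues made by adjacent genes, Taf10 and Taf10b, the latter known from SAGA. Taf10 read 9.88, 9.90 and 9.95 in S2 control and 10.11, 10.25 and 10.14 in induced cells (log2 change 0.26, SE 0.06, adjusted p = 0.00723). Taf10b read 9.84, 9.93 and 9.97 against 10.02, 10.16 and 10.06, a log2 change of 0.17 (SE 0.06, adjusted p = 0.0696). The direction was the same on all induced arrays of both genes, and only Taf10 passed. Whether the paralogues differed from each other was not tested. TAF8 and TAF3 are known to pair with TAF10. Taf8 stood at 0.14 (adjusted p = 0.138) and Taf3 at 0.20 (adjusted p = 0.149), the latter with overlapping groups and a 95% interval of -0.01 to 0.40.

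Taf4 and Taf12, which form a histone-fold pair, gave no call. Taf4, a large TAF contacted by activators, read 11.13, 11.19 and 11.06 against 11.22, 11.25 and 11.26, higher on all induced arrays by 0.12 (adjusted p = 0.154). Its other probe set gave 0.12 as well (adjusted p = 0.100). Taf12 stood at -0.03 (95% interval -0.14 to 0.08, adjusted p = 0.690), and Taf13, the partner of the unmeasured Taf11, at -0.06 (adjusted p = 0.478). Outside the histone-fold group, Taf1, the largest TAF and a scaffold of TFIID, read 10.84, 10.88 and 10.85 against 10.88, 10.82 and 10.83, with overlapping groups and a log2 change of -0.01 (95% interval -0.12 to 0.10, adjusted p = 0.886). Taf5, a WD-repeat scaffold subunit, stood at 0.10 (adjusted p = 0.248) with separate groups. Taf7, which binds Taf1, stood at 0.11 (adjusted p = 0.242) from a dim signal of 5.87.

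Taf12L, a paralogue of Taf12 known in flies from the testis, was the gene that fell most. Its representative probe set read 7.04, 7.28 and 7.21 in S2 control and 6.66, 6.73 and 6.65 in induced cells. All induced arrays were lower, with a log2 change of -0.49 (SE 0.07, adjusted p = 0.000503), or 1.41-fold. A dimmer probe set of the same gene gave no call and stood at 5.04 in S2 control and 5.05 in induced cells (log2 change 0.01, adjusted p = 0.946). The mean of both probe sets changed by -0.24 (adjusted p = 0.0173), so the size of the fall rests on the choice of probe set. Of 6 other measured TBP-related and testis TAF genes (Trf, Trf2, can, sa, mia and nht) 0 passed in limma and 0 had an unadjusted p under 0.05, and their log2 changes ran from -0.11 to 0.08.

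**Figure D3:**
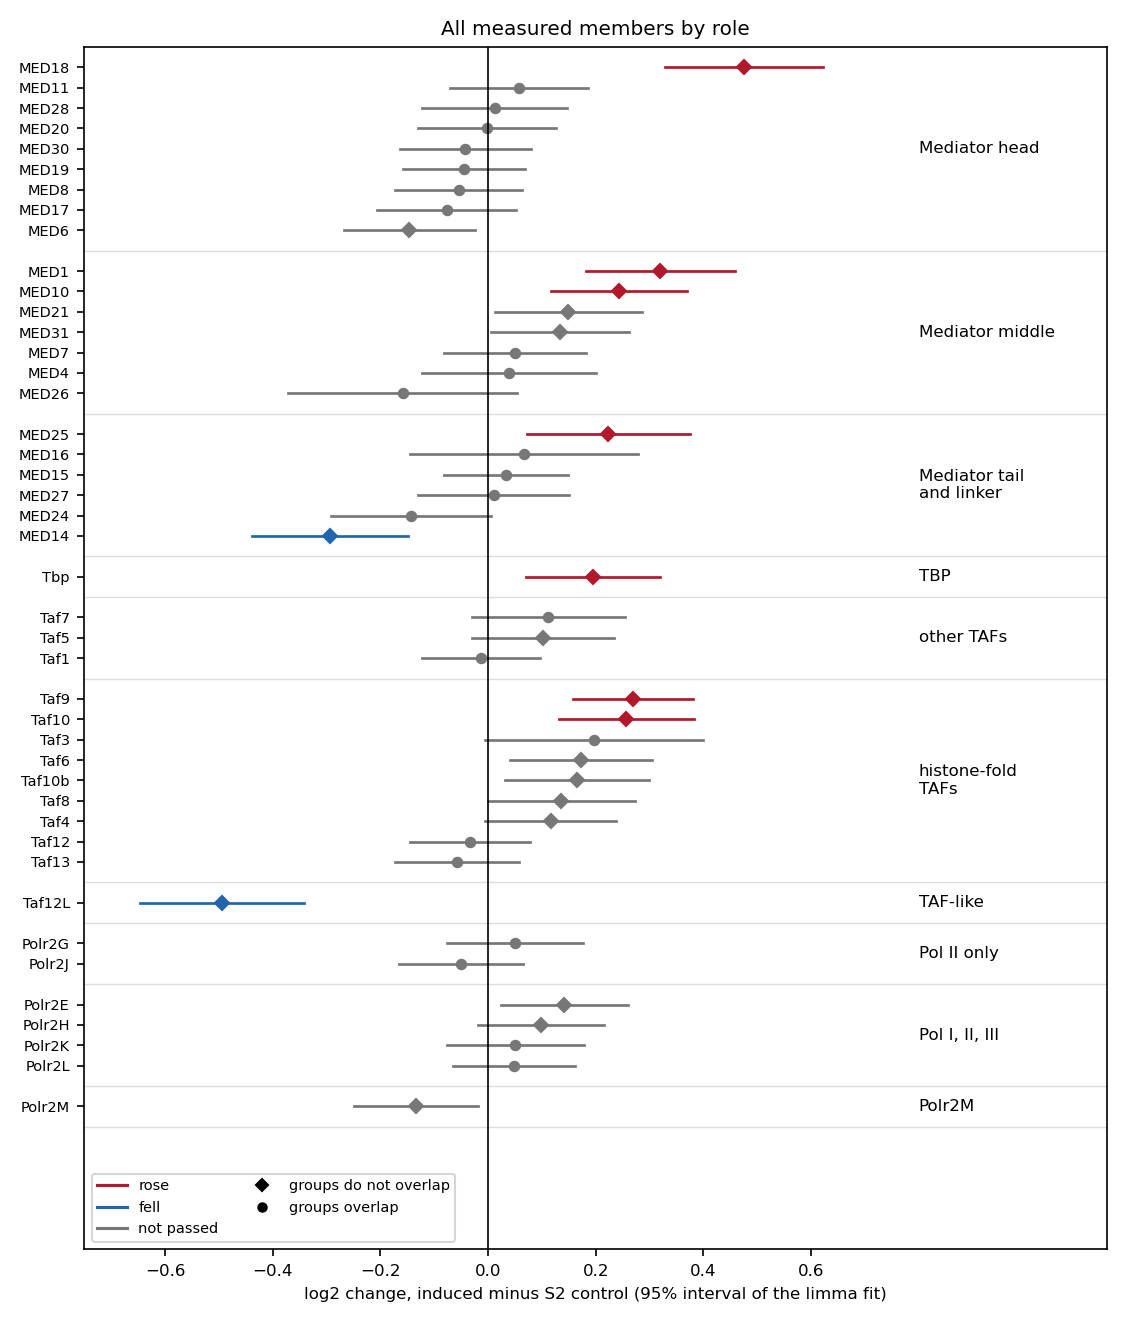
Log2 change, induced minus S2 control, of all 43 measured genes with the 95% interval of the limma fit, ordered by complex and module. Red genes rose, blue genes fell and grey genes did not pass, and diamonds mark genes whose groups do not overlap. The grey intervals all lie between -0.37 and 0.40.

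Of the 7 measured polymerase genes 0 passed in limma, against 30.5% of all genes and 42.3% of the brighter ones. An unadjusted p under 0.05 was seen for 2 of the 7, namely Polr2E and Polr2M. Subunits of RNA polymerase II alone were Polr2G, the stalk subunit RPB7, and Polr2J, RPB11, a part of the assembly platform. Polr2G read 9.93, 9.96 and 9.96 in S2 control and 9.91, 10.07 and 10.02 in induced cells, which overlapped (log2 change 0.05, 95% interval -0.08 to 0.18, adjusted p = 0.585). Polr2J read 11.46, 11.47 and 11.53 against 11.39, 11.46 and 11.46, also with overlap (log2 change -0.05, 95% interval -0.17 to 0.07, adjusted p = 0.544). Among the subunits shared with RNA polymerases I and III, Polr2E (RPB5) read 10.89, 10.84 and 10.89 against 11.01, 11.08 and 10.96. Its induced arrays were all higher, by 0.14 (SE 0.05, adjusted p = 0.0776), and it passed in 3 other settings, with dim probe sets left out (adjusted p = 0.0307), a further quantile normalisation (0.0368) and trended robust moderation (0.0176). Polr2H (RPB8) stood at 0.10 (adjusted p = 0.208), again with all induced arrays higher, and Polr2K (RPB12) and Polr2L (RPB10) at 0.05 each with overlapping groups. Polr2M, whose human counterpart is the inhibitory subunit Gdown1, read 8.66, 8.57 and 8.65 against 8.52, 8.48 and 8.48. It was lower on all induced arrays by 0.13 (log2 change -0.13, SE 0.05, adjusted p = 0.0840) and passed as lower in 4 other settings, at an adjusted p of 0.0322 to 0.0492.

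For the 34 genes that did not pass, the 95% intervals of the log2 change all lay inside -0.5 to 0.5, from -0.37 (MED26) to 0.40 (Taf3). Changes inside a gene's own interval cannot be told from its value here. The large catalytic subunits Polr2A and Polr2B were not analysed here, nor were Polr2C, Polr2F, Polr2I, Taf2 and MED22, 7 genes for which the annotation gave no probe set. Another 4 genes (MED9, MED23, Polr2D and Taf11) were read only by 6 probe sets that name a second gene. Of the 6, 0 passed in limma, with log2 changes from -0.02 to 0.16 and a lowest adjusted p of 0.0712, and those values cannot be assigned to either gene.

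Some of the 9 called genes overlap another gene in the RefSeq table, and the strands were not used here. Of 7 such genes with a measured neighbour, the neighbour passed in the same direction in 3 pairs, in 0 the opposite way, and did not pass in 4. Among the pairs of genes that did not pass, the neighbour passed in either direction in 9 of 17. Of all genes 30.5% passed, 14.5% rising and 16.0% falling. With 7 pairs no difference between these shares was tested. MED14 overlaps CG13893, which fell from 11.76 to 10.33 (log2 change -1.42, SE 0.05, adjusted p = 6.716e-08). Taf9 overlaps CG8142, which rose by 0.28 (adjusted p = 0.0129), close to the 0.27 of Taf9. Taf10 overlaps colt, a mitochondrial carrier gene, which rose by 0.26 (adjusted p = 0.0166), the same value as Taf10. Pex5, which overlaps MED18, stood at 0.20 and did not pass (adjusted p = 0.0841), and the neighbours of MED1 (Alg11), Tbp (eIF3k) and Taf12L (dcma) stood at 0.05, 0.06 and 0.08 and did not pass. Whether the probe sets of MED14, Taf9 and Taf10 read RNA of these neighbours was not tested. Of the 9 called genes, 3 (MED18, MED14 and Taf12L) were read by probe sets whose names mark several transcripts of 1 gene, and 0 by sets whose names mark sequence shared between genes.

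By chromosome arm, 2 of the 3 measured genes on the X chromosome rose (MED18 and Taf9), and the third, Taf8, was higher on all induced arrays without passing. Of all 1873 measured genes on the X, 19.4% rose and 13.0% fell, a higher share of rising genes than the 9.23% to 15.2% on the other arms. On 3R, 1 of 13 genes rose (MED25), and on 3L 2 of 12 rose (MED1 and MED10) and 1 fell (MED14). With these counts no difference between arms was tested for the chosen genes.

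Other genes of the transcription machinery were followed in 7 lists of 94 measured genes, taken as background to the same comparison. Of these, 22 rose, 7 fell and 65 did not pass (30.9% passed, with 23.4% rising and 7.45% falling, against 30.5%, 14.5% and 16.0% of all genes), with a median log2 change of 0.08. Of the 94 genes, 88 lay at or above the median signal of all probe sets. Of all genes that bright, 42.3% passed, 21.1% rising and 21.3% falling. The number of the 94 genes that rose depended on single arrays: it was 13 without S2 control replicate 1 or 2, 8 without induced replicate 2 and 7 without induced replicate 3. It was 14 with arrays centred on ribosomal protein genes.

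Of 17 genes of TFIIA, TFIIB, TFIIE, TFIIF and TFIIH, 5 rose and 1 fell (29.4% and 5.88%). Of all genes 14.5% rose and 16.0% fell, and of the brighter ones 21.1% and 21.3%. TfIIA-S-2, a second gene for the small TFIIA subunit, rose by 0.35 (SE 0.06) from a dim signal of 4.93, and mrn, a TFIIH core subunit, rose by 0.27 (SE 0.06). CycH, the cyclin of the TFIIH kinase, fell by 0.30 (SE 0.05), from 10.73 to 10.44. Of the 4 genes of the Mediator kinase module, which carry other symbols (kto, skd, Cdk8 and CycC), Cdk8 rose by 0.20 (SE 0.06, adjusted p = 0.0359) and 3 did not pass, with log2 changes of -0.05 to 0.10. Of 18 genes of SAGA and other ADA2-containing acetyltransferase complexes without a TAF symbol, 7 rose and 1 fell (38.9% and 5.56%). The WD-repeat gene wds rose by 0.29 (SE 0.05) and D12 by 0.32 (SE 0.06), while Atac3 fell by 0.17 (SE 0.05). The list does not separate SAGA subunits from those of other ADA2-containing complexes. TAFs known in Drosophila SAGA stood at 0.27 (Taf9), 0.17 (Taf10b) and -0.03 (Taf12), of which Taf9 passed.

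Of 26 pausing and elongation genes, 4 rose and 2 fell (15.4% and 7.69%). Of all genes 14.5% rose and 16.0% fell, and of the brighter ones 21.1% and 21.3%. All 26 genes lay in the brighter range. TH1, a subunit of the pausing factor NELF, rose by 0.25 (SE 0.05) and the FACT subunit gene Ssrp by 0.20 (SE 0.05), while the elongin gene EloA fell by 0.28 (SE 0.05) and CycK, a cyclin partner of Cdk12, fell by 0.23 (SE 0.06). Of 20 genes of polymerase tail phosphatases, termination and Integrator, all of them in the brighter range, 4 rose and 3 fell (20% and 15%). The termination factor gene lds rose by 0.18 (SE 0.05) and the exonuclease gene Rat1 by 0.29 (SE 0.08), while IntS1 and IntS10 fell by 0.38 (SE 0.05) and fell by 0.21 (SE 0.05). Of 3 negative cofactors of TBP, Hel89B, an ATPase that removes TBP from DNA, rose by 0.20 (SE 0.05).

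**Figure D4:**
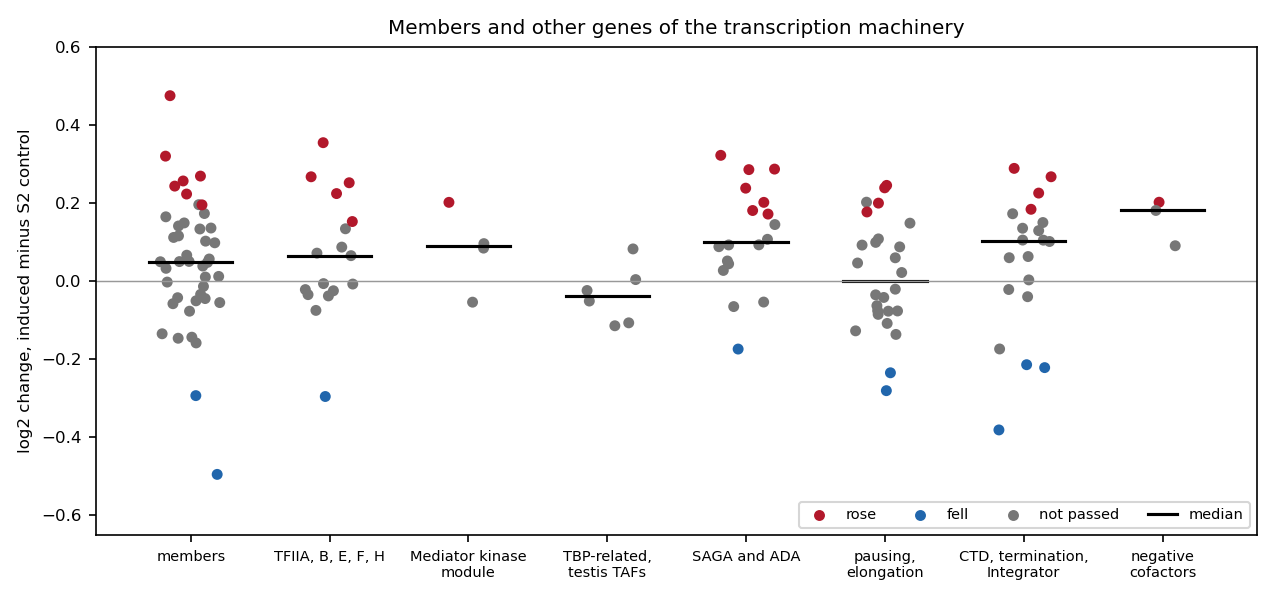
Log2 change, induced minus S2 control, of the 43 chosen genes and of 7 lists of other transcription machinery genes, 1 point per gene, with the median of each list as a black line. Red points rose, blue points fell and grey points did not pass, and all points lie between -0.49 and 0.48.

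The calls differed in how far they held when the fit was changed. In 14 other settings apart from stricter thresholds, MED18, MED1, MED10, Taf9, Taf10, MED14 and Taf12L passed each time, 7 of the 9. For Taf12L no setting used its dimmer probe set alone, which gave no call. MED25 passed in 8 of 14 and Tbp in 9 of 14. Of the 34 genes that did not pass, 24 passed in none of these settings and 10 in at least 1. Those 10 kept their direction in every setting in which they passed.

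**Figure D5:**
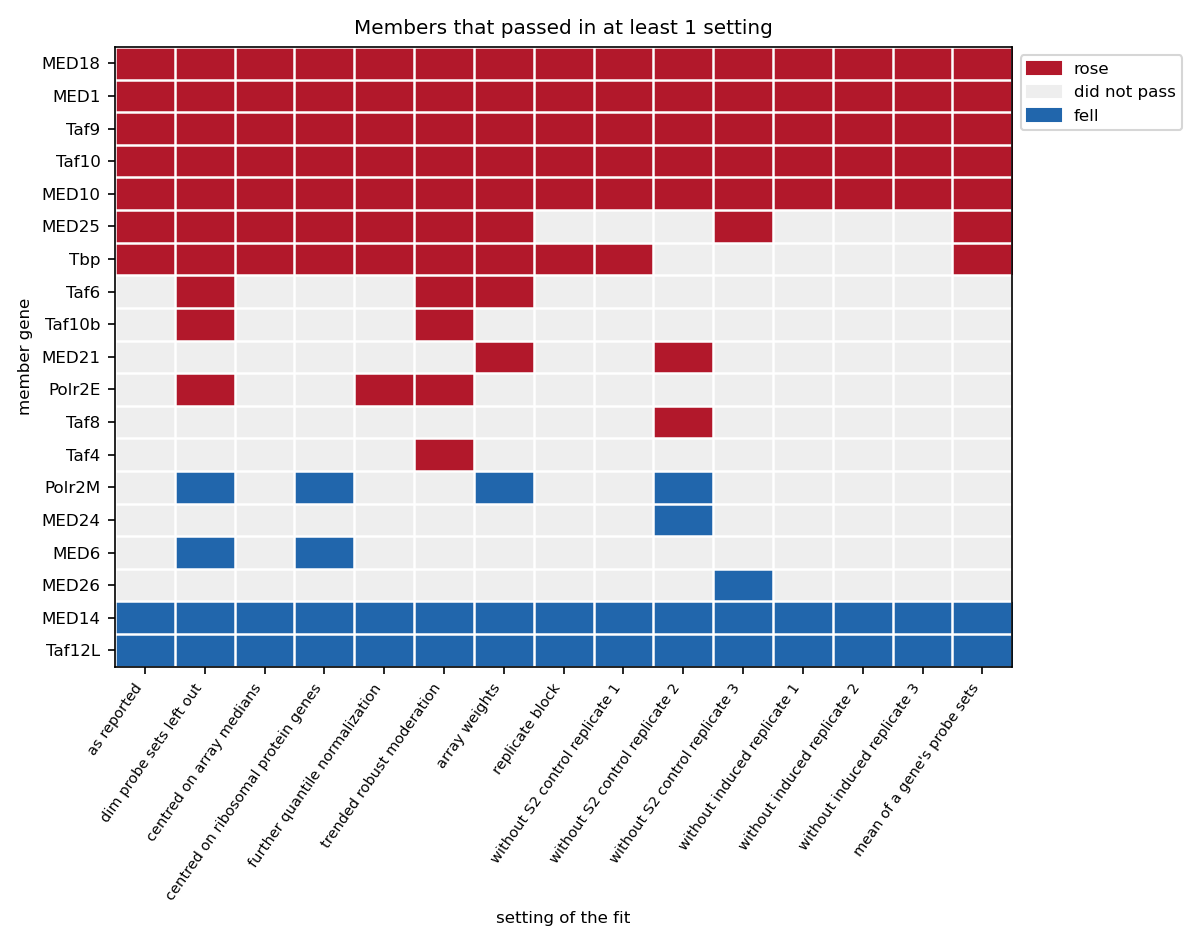
Call of each gene (rows) that passed in at least 1 setting of the fit (columns), with red for rose, blue for fell and light grey for did not pass. The rows of MED18, MED1, Taf9, Taf10, MED10, MED14 and Taf12L are of 1 colour throughout.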

How the data were processed

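The authors used RMA to make the deposited table, which holds a log2 signal for each probe set on each array (background correction, normalisation between arrays, summary of probes), per the submitters' processing notes. The sources used here state no RMA version or filter. RMA removes a change common to all transcripts and compresses differences of dim probe sets. No counts exist, so the number of arrays limits the precision.

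The table held 18952 probe sets. Of these, 183 platform controls were left out and 18769 tested. The annotation named 1 gene for 13647, several for 402 and none for 4720. Symbols were updated by gene identifier for 13550. Where several probe sets named a gene alone, the one brightest on average stood for it.

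A linear model with group as its term was fitted to all 6 arrays (limma 3.58.1, R 4.3.3, eBayes with no trend). Tests were two-sided, with Benjamini-Hochberg adjustment over the 18769 probe sets and a threshold of 0.05. All adjusted p-values come from such fits, and intervals are from the moderated fit. With 3 arrays a side, the smallest p of an exact permutation test is 0.1, so none was used. The genes named were all that passed, the largest rise and fall of each module, genes with disagreeing probe sets or changing calls, and up to 2 called genes per direction of each other list; the remaining chosen genes are given so that each is accounted for. Taf3 was moved to the histone-fold group after its values were seen. The genes and lists were chosen with earlier results of these data known. Of 104 other machinery genes, 94 were measured. Alternatives dropped dim probe sets, centred arrays on their medians or on ribosomal protein genes, normalised by quantiles again, used trended robust moderation or array weights, blocked on replicate number, left out each array, averaged a gene's probe sets, or tightened the threshold.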

Additional observations from a re-analysis of the deposited data

How the results depend on the processing

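Counts of called genes moved with the setting, and so did the share of calls that were higher. Against 7 higher and 2 lower genes, trended robust moderation gave 11 higher, and leaving out dim probe sets or centring on ribosomal protein genes gave 4 lower. With an array left out, 5 to 7 rose and 2 to 4 fell. Over the settings with any call, 63.6% to 84.6% of the calls were higher, against 77.8% as reported. No gene passed at 2-fold or more (0 and 0, also among the other machinery genes). The other machinery genes gave 22 higher and 7 lower. They gave 14 higher when centred on ribosomal protein genes, and 6 higher and 3 lower at an adjusted p under 0.01. With an array left out they gave 7 to 18 higher and 5 to 7 lower. Of their calls 75.9% were higher as reported, and 53.8% (without induced replicate 3) to 77.4% (dim probe sets left out) in other settings with any call. The cause of these moves was not tested, except that stricter thresholds pass fewer genes by construction. No called gene changed sign in any setting, and BigH1 stood at 8.10 to 8.38. For the called chosen genes the sign was partly fixed in advance. Their groups did not overlap, so leaving out an array could not turn it. The replicate block, trended robust moderation and the stricter thresholds keep the same log2 change. Replicate numbers did not pair the arrays: same-numbered arrays correlated at 0.04, -0.10 and 0.01 in their deviations. With the replicate block, 6 of the chosen genes rose and 2 fell, MED25 not passing (adjusted p = 0.0630), and 17 and 6 of the other machinery genes. Taf7 and the dimmer Taf12L probe set lay below the median signal of all probe sets, and their distance from background was not measured.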
